A study of Mus musculus with 17 samples.

Results

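H3.3 regions in Arid1a cKO pachytene spermatocytes that lay at the start of a noncoding transcript, away from every protein-coding start, were examined on the autosomes. Overlapping rows of the deposited Arid1a cKO list were merged into regions, and a region was kept when its centre lay within 1 kb of a transcript start of any gene but more than 1 kb from every transcript start of a protein-coding gene (mm10, GENCODE M21). This gave 140 of 6179 autosomal regions, a share of 2.27% (95% Wilson interval, 1.92 to 2.67%), out of 6552 regions on all chromosomes. Another 5441 autosomal regions were centred within 1 kb of a protein-coding start, and 598 lay farther than 1 kb from any start and are called distal here. Each region was named after the noncoding gene whose start was nearest its centre.

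The cells came from mice carrying floxed alleles of Arid1a, which encodes a subunit of the BAF chromatin remodelling complex. Arid1a cKO males were Arid1a fl/fl; Stra8-Cre Tg/0, and Arid1a WT males were Arid1a fl/fl or Arid1a fl/+ without Cre, so the controls carried floxed alleles too. The Stra8-Cre transgene acts from spermatogonia onward, and the study describes its activity as inefficient. It found transcripts of the unexcised allele in purified Arid1a cKO pachytene spermatocytes, and some such cells still stained for ARID1A. The Arid1a cKO libraries may therefore include cells that retained ARID1A. Pachytene spermatocytes were purified by Sta-Put sedimentation from the pooled testes of adult males, frozen, and profiled by CUT&RUN, in which an antibody tethers a nuclease that releases the DNA it sits on. The antibody to H3.3 was used on 3 Arid1a cKO and 2 Arid1a WT libraries, and the replicates of each genotype were combined by the authors into 1 list. There was therefore no spread between replicates and no test of the genotype, and the shares and quartiles given here describe 1 list. The lists hold positions and no RNA levels, so neither the loss of Arid1a nor the identity of the cells could be checked in them.

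H3.3 is a histone H3 variant that is placed on chromatin outside of DNA replication, and it is found at the promoters of active genes in many cell types. In male meiosis it also builds up on the X and Y chromosomes as they are silenced. Noncoding genes include long noncoding RNAs (lncRNAs), which are often spliced and transcribed by RNA polymerase II like messenger RNAs, pseudogenes, which are disabled copies of other genes, and small RNAs such as miRNAs, snoRNAs and snRNAs. Many promoters lie in stretches rich in CpG dinucleotides, which are usually free of DNA methylation.

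Of the 140 regions, 82 were named after a lncRNA, a share of 58.6% (50.3 to 66.4%), and 35 after a pseudogene, a share of 25% (18.6 to 32.8%). A further 11 were named after a small RNA, and 12 after a gene of the annotation's TEC type, a type kept for loci that still await experimental testing. None was named after an immunoglobulin or T cell receptor segment. Among the lncRNAs, 47 were typed as lincRNA, 21 as processed transcript, 12 as antisense and 2 as sense overlapping, and 73 of the 82 had at least 2 exons. The small RNAs were 6 miRNAs, 2 snoRNAs, 2 snRNAs and the telomerase RNA Terc. The regions were named by 137 different genes, and 27 of the 140 had more than 1 noncoding gene starting within 1 kb.

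Sequences at the centres of these regions are shown to make their base composition visible. The first 4 belong to the region of highest fold in each class, the next 3 to a snoRNA host gene, the lncRNA 2900097C17Rik (Norad, a cytoplasmic RNA that binds PUMILIO proteins) and the telomerase RNA, and the last to the region with the lowest CpG ratio (observed over expected) among those of mostly unique sequence. Each is 160 bp of mm10 centred on the region, printed 5′ to 3′ on the strand of the noncoding gene, with CpG dinucleotides in capitals.
B930059L03Rik, chr12:110591408-110591567, plus strand: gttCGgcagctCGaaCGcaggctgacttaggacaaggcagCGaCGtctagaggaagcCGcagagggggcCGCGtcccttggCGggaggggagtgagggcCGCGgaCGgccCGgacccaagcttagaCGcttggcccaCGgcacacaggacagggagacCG
1810014B01Rik, chr10:86685615-86685774, plus strand: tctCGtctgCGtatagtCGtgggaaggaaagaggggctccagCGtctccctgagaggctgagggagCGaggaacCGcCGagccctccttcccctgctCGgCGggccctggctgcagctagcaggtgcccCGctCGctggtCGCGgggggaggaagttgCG
Mir6976, chr17:46553088-46553247, minus strand: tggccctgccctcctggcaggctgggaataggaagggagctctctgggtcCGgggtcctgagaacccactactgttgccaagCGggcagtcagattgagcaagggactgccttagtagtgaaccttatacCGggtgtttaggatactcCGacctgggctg
Gm6420, chr1:23256404-23256563, minus strand: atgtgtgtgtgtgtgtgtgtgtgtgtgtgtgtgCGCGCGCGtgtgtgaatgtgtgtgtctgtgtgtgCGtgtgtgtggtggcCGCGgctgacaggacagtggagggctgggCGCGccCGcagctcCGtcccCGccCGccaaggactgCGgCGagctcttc
Snhg6, chr1:9943935-9944094, minus strand: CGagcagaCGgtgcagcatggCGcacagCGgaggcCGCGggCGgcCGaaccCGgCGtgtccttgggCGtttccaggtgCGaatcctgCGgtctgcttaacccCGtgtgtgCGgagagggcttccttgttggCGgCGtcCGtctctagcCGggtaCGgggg
2900097C17Rik, chr2:156392593-156392752, minus strand: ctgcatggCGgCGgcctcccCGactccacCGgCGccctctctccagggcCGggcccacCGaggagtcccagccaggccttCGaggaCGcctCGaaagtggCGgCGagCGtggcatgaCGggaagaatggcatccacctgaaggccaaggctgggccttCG
Terc, chr3:96414643-96414802, minus strand: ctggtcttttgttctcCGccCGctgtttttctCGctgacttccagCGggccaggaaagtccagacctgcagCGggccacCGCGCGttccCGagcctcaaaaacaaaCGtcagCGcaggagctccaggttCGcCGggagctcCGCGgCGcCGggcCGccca
C030014I23Rik, chr9:44478898-44479057, plus strand: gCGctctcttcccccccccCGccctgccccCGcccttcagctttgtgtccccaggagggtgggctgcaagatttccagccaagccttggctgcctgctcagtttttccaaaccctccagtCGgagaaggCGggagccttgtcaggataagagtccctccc

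The 160 bp of Snhg6 held 20 CpGs, those of Terc 18, those of B930059L03Rik 16, those of Gm6420 and 2900097C17Rik 15 each and those of 1810014B01Rik 14. Mir6976 held 4 CpGs and C030014I23Rik 5, and their GC content, 58.8% and 63.8%, was also below that of the others (65.6 to 70.6%), though by a smaller margin than their CpG count.

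Most of the regions were CpG-rich. A start or centre was called CpG-rich when the 500 bp around it had a GC content of at least 50% and an observed over expected CpG ratio of at least 0.6. By this measure 116 of the 140 regions were CpG-rich, a share of 82.9% (75.8 to 88.2%), compared with 95.8% (95.2 to 96.3%) of regions at protein-coding starts and 51.8% (47.8 to 55.8%) of distal regions. The share was 86.6% for lncRNAs, 82.9% for pseudogenes and 91.7% for TEC genes, but 5 of 11 for small RNAs. The median CpG ratio was 0.831 for the 140 regions, 0.861 at protein-coding starts and 0.608 in distal regions.

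The fold enrichment of H3.3 over IgG, a ratio computed by the authors for each peak, had a median of 3.67 in the 140 regions, with quartiles of 3.05 and 4.33 and a range of 2.85 to 8.26. Regions at protein-coding starts had a median of 4.07 (quartiles 3.44 and 4.93), and distal regions one of 3.25 (2.91 and 3.64), so regions at noncoding starts lay between them with wide overlap. By class, the median fold was 3.87 for lncRNAs, 3.70 for TEC genes, 3.27 for pseudogenes and 3.14 for small RNAs. CpG-rich regions had a median fold of 3.75 and the 24 others one of 3.03, and at protein-coding starts the same medians were 4.09 and 3.50. Of the 23 regions with a fold of at least 5, 22 were CpG-rich and 15 belonged to lncRNAs.

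**Figure D1:**
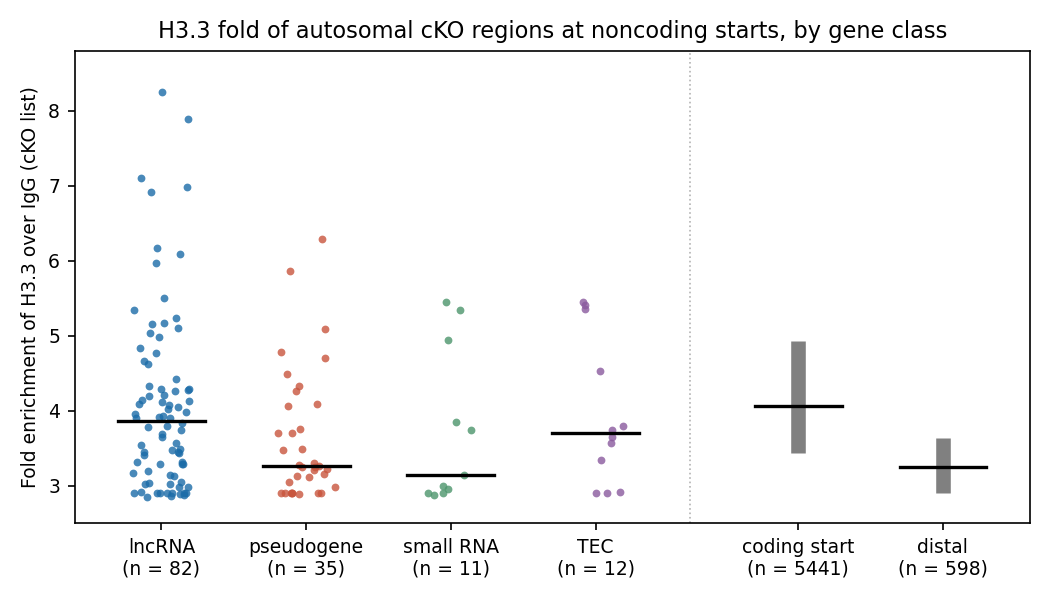
Fold enrichment of H3.3 over IgG (vertical axis, a ratio) of each of the 140 Arid1a cKO regions at noncoding starts, as points grouped by gene class with a black line at the median, beside the quartiles (grey bar) and median of regions at protein-coding starts and of distal regions. The lncRNA points reach 8.26 around a median of 3.87, and the pseudogene points crowd near their median of 3.27.

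**Figure D2:**
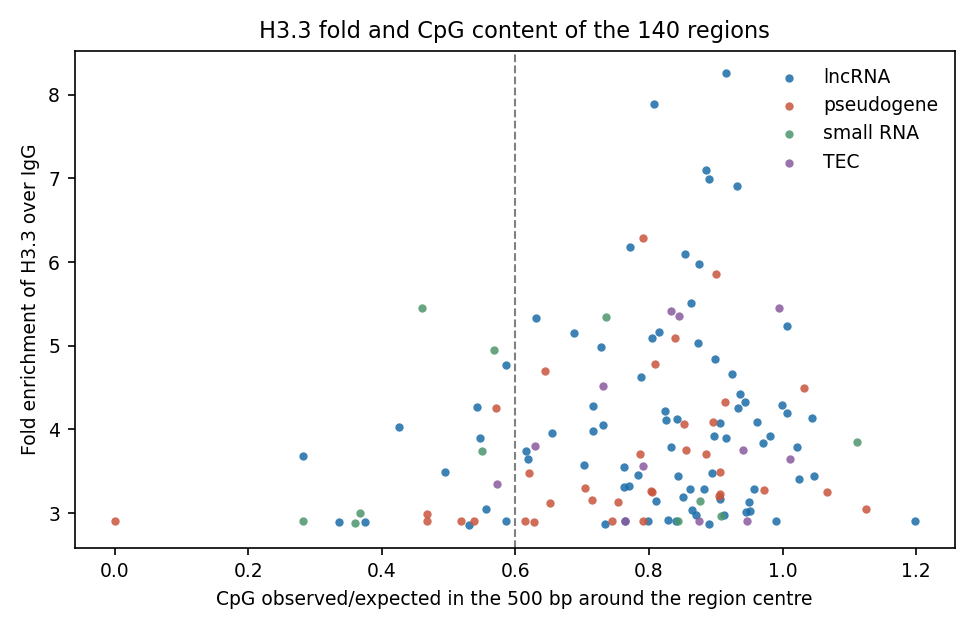
Fold enrichment of H3.3 over IgG (vertical axis) against the observed over expected CpG ratio of the 500 bp around the centre (horizontal axis) for each of the 140 regions, coloured by gene class, with a dashed line at the CpG ratio of 0.6. To the left of the line no region passes the 5.46 of Mir6976, and folds up to 8.26 lie to its right.

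The regions were narrow as listed. Their median width was 342.5 bp (quartiles 252.8 and 498), against 439 bp at protein-coding starts and 284 bp in distal regions. The authors intersected replicate peaks, and the narrowest distal region was 1 bp. A width may therefore be that of the stretch shared by replicates, and need not be that of an H3.3 domain. The −log10 q given by the authors' peak caller reached at least 5 in 29 of 140 regions, a share of 20.7% (14.8 to 28.2%), where 28.0% of all autosomal regions did and 30.6% of those at protein-coding starts. A total of 17 regions carried the fold of 2.91 that was the most common value in the autosomal list, a share of 12.1% compared with 6.93% at protein-coding starts and 19.6% in distal regions. In 103 of the 140 the list held at least 2 overlapping rows, a lower share than the 5329 of 6179 among all autosomal regions. The median fold of these 103 was 3.79, where that of the 37 regions with 1 row was 2.99.

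Within the 1 kb that the rule allowed, the centres gathered at the annotated starts. An annotated start, such as that of a miRNA or pseudogene, was taken as given and need not be where transcription begins. The median position of the centre was 23.2 bp downstream of the nearest noncoding start, with quartiles at −124 and 154 bp, and 90 of 140 centres lay within 200 bp of it. The start itself lay inside the region in 85 of 140, and 75 centres were downstream and the rest upstream or at the start. Since the rule admitted centres up to 1 kb away on either side, the 17 centres beyond 500 bp are its loosest assignments, and they include B930059L03Rik (975 bp downstream) and Mir6976 (722 bp downstream).

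**Figure D3:**
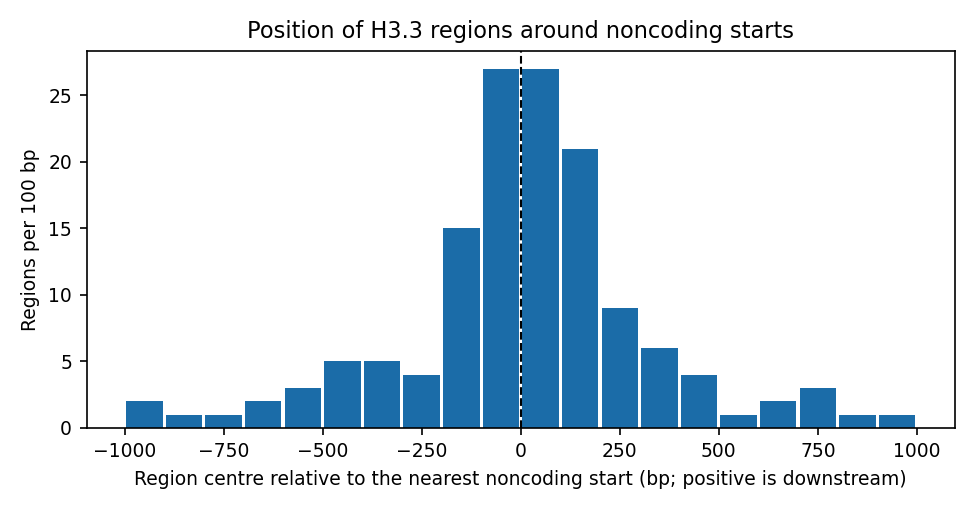
Number of the 140 regions per 100 bp (vertical axis) by the distance of the region centre from the nearest noncoding transcript start in bp (horizontal axis, positive downstream in the direction of transcription, dashed line at the start). The bins on either side of the start hold 27 regions each, and the bins beyond 300 bp hold 1 to 6.

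To see how common such regions were among the genes themselves, every autosomal gene was asked whether an Arid1a cKO region was centred within 1 kb of one of its starts. This was so for 6104 of 20807 protein-coding genes (29.3%) and for 182 of 27326 noncoding genes whose starts all lay more than 1 kb from coding starts (0.666%). Among those noncoding genes, 125 of 995 with a CpG-rich start had a region, a share of 12.6% (10.6 to 14.8%), but only 57 of 26331 without one did, a share of 0.216% (0.167 to 0.280%). Protein-coding genes showed the same ordering at higher levels, with 49.0% (48.1 to 49.9%) of CpG-rich and 2.30% (2.00 to 2.63%) of other genes. A noncoding gene with a CpG-rich start thus had a region less often than a protein-coding gene with one, with intervals that did not overlap. Both traits were taken over all starts of a gene, so the CpG-rich start need not be the one with the region. Genes with more starts had more chances at both, and the intervals take genes that share a region as independent.

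Between classes the shares differed as well. With a CpG-rich start, 70 of 363 lncRNA genes had a region (19.3%, 15.6 to 23.7%), 12 of 53 TEC genes (22.6%, 13.5 to 35.5%), 14 of 160 small RNA genes (8.75%, 5.28 to 14.2%) and 29 of 419 pseudogenes (6.92%, 4.86 to 9.76%). Without one, each class was at or below 0.343%. Pseudogenes of the annotation's transcribed types had a region in 13 of 457 (2.84%, 1.67 to 4.81%), and pseudogenes of the other types in 25 of 10728 (0.233%, 0.158 to 0.344%). Processed transcripts stood above the other large lncRNA types, with 23 of 429 (5.36%, 3.60 to 7.92%) against 52 of 4820 lincRNAs (1.08%, 0.824 to 1.41%) and 17 of 1841 antisense genes (0.923%, 0.577 to 1.47%). The contrasts between pseudogene types and between lncRNA types were not split by CpG-rich start. All values here are shares of annotated genes, and expression of the genes was not measured in these lists.

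**Figure D4:**
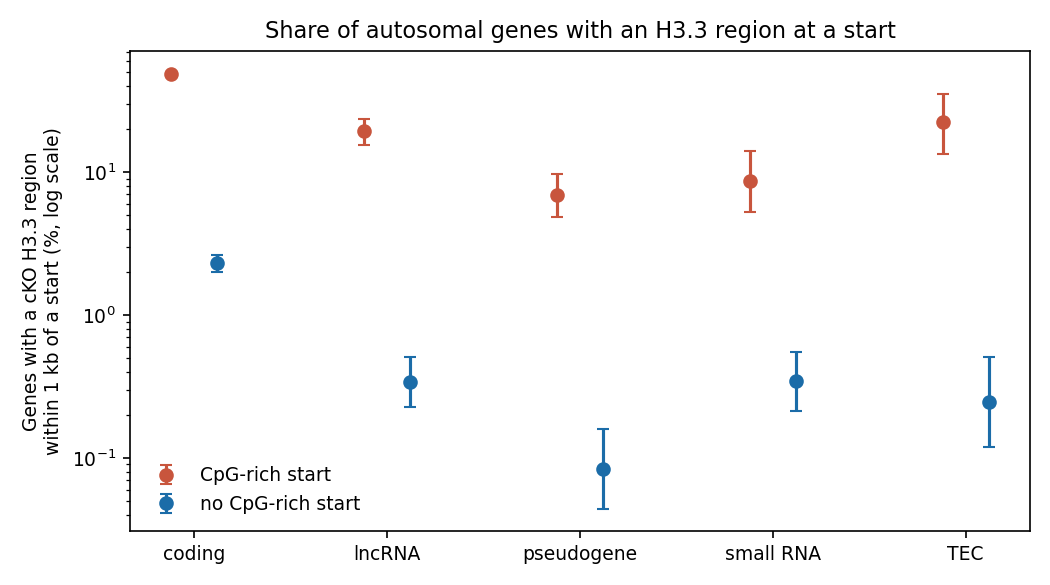
Share of autosomal genes with an Arid1a cKO H3.3 region centred within 1 kb of a start (vertical axis, percent, log scale) for protein-coding genes and for 4 classes of noncoding genes away from coding starts, split by whether a start is CpG-rich; bars are 95% Wilson intervals. The CpG-rich points run from 6.92% for pseudogenes to 49.0% for coding genes, and every point without a CpG-rich start lies at 2.30% or lower.

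Among lncRNAs the highest fold, 8.26, belonged to a 291 bp region near B930059L03Rik on chromosome 12 (chr12:110591342-110591632), and next came a region of fold 7.90 at the antisense gene Gm16599, which starts inside Cux1, the gene of a homeodomain transcription factor. Snhg6, a host gene whose introns carry a snoRNA, had a fold of 7.10 (chr1:9943844-9944184), and its region was centred 89 bp downstream of the start. Gm37494 had a fold of 6.99, Gm2885 one of 6.91, 1700096K18Rik one of 6.17 and 6720427I07Rik one of 6.09. The group of 10 highest lncRNA regions closed with 1700064M15Rik (5.97), 2900097C17Rik (5.51) and Gm26901 (5.34). All 10 were CpG-rich, and Gm16599 was the only one inside a protein-coding gene.

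Some of the lncRNA regions lay at genes that host snoRNAs. Of 16 noncoding snoRNA host genes found in the annotation, 9 had an Arid1a cKO region within 1 kb of a start, 4 of them at a neighbouring protein-coding start (Gas5, Snhg3, Snhg9 and Snhg10) and 5 among the 140 regions. These 5 were Snhg6 (fold 7.10), Dancr, which limits differentiation of epidermal cells (5.34), Epb41l4aos (4.67), Snhg20 (4.09) and Snhg8 (3.03). The region at Dancr was named after the snoRNA Snora26, whose start was nearer, and those at Snhg8 and Snhg20 also lay within 1 kb of Snora24 and of a scaRNA gene. Another lncRNA with snoRNAs at its start, 2410006H16Rik, which holds Snord49a and Snord49b, had a fold of 4.33. The 9 of 16 stand beside 3.66% of all noncoding genes, 19.3% of lncRNA genes with a CpG-rich start away from coding starts and 30.0% of noncoding genes that start within 1 kb of a coding start, and 6 of the 16 are of the last kind.

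Of 35 well-studied lncRNAs found in the annotation, 8 had a region within 1 kb of a start, beside 3.66% of all noncoding genes and 19.3% of lncRNA genes with a CpG-rich start away from coding starts. For Tug1, Mir22hg and Hotairm1 it lay at a protein-coding start. The other 5 genes carried 8 of the 140 regions. 2900097C17Rik had a fold of 5.51 and Crnde, whose region was centred 1615 bp from a start of Irx5, one of 3.29. Mir9-3hg, the host of miR-9-3, had one region of fold 4.13 and another of 2.91, and Dleu2, which contains the miR-15a and miR-16-1 genes, had folds of 3.79 and 3.44 at separate starts. The host of the miR-17 to miR-92 cluster, Mir17hg, had a fold of 2.98 upstream of its start and 2.88 at the Mir17 and Mir18 genes. The imprinted lncRNAs H19, Meg3, Kcnq1ot1 and Airn and the abundant nuclear RNAs Malat1 and Neat1 were in the same list and had no region at a start.

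Pseudogenes were led by 1810014B01Rik (fold 6.29; chr10:86685550-86685839) and Rps4l, a copy of a ribosomal protein gene inside Tmtc1 (5.86). They were followed by Gm40848 (5.09), Zfp783 (4.78) and B330016D10Rik (4.70). The histone gene copy Hist1h2al had a fold of 4.33. The 11 regions at pseudogenes of transcribed types had a median fold of 3.48 and the 24 others one of 3.20, with quartiles that overlapped (3.24 and 4.64 against 2.91 and 3.72). In the others the fold stood at the commonest value of 2.91 in 7 regions.

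Small RNA regions were few. Mir6976, whose region lies within Srf, the gene of serum response factor, had a fold of 5.46, Snora26 one of 5.34, Mir210 one of 4.95, the U3 snoRNA gene Rnu3b3 inside Tex14 one of 3.85 and the snRNA gene Gm24859 one of 3.74. The remaining 6 were between 2.88 and 3.14, namely the snRNA gene Gm24950 (3.14), Gm23564 (3.00), Terc (2.96), Mir149 inside Gpc1 (2.91), Mir212 (2.91) and Mir18 (2.88). Of 1302 housekeeping small RNA genes, snRNA genes included, 14 had a region at a start, beside 3.66% of all noncoding genes and 0.606% of small RNA genes away from coding starts. For 11 of them, among them Rmrp and Rpph1, the RNA parts of RNase MRP and RNase P, it lay at a protein-coding start, and the other 3 were Terc, Gm24859 and Gm24950.

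A total of 16 miRNA genes started within 1 kb of 10 of the regions, and 14 of them were found by symbol in the RefSeq miRNA table (GRCm38.p6). A mature arm of 12 of them is printed to show which of them share a seed, with the seed (bases 2 to 8), the part that pairs with target messages, in capitals. The first 6 belong to genes of the Mir17 cluster, which all start within 1 kb of the centre of 1 region of fold 2.88, and the next pair to genes that start within 1 kb of the centre of 1 region of fold 2.91.
mmu-miR-17-5p: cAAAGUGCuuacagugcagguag
mmu-miR-20a-5p: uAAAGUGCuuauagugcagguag
mmu-miR-18a-5p: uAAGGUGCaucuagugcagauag
mmu-miR-19a-3p: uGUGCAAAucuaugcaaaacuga
mmu-miR-19b-3p: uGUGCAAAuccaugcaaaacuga
mmu-miR-92a-3p: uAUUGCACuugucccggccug
mmu-miR-212-3p: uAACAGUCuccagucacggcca
mmu-miR-132-3p: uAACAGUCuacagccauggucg
mmu-miR-210-3p: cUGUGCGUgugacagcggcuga
mmu-miR-149-5p: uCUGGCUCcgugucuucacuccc
mmu-let-7i-5p: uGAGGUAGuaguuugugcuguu
mmu-miR-6976-5p: cAGGGAAGuugagaggaaaauug

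The printed miRNAs that shared a seed were assigned to the same region. miR-17-5p and miR-20a-5p have the seed AAAGUGC, miR-19a-3p and miR-19b-3p the seed GUGCAAA, and miR-212-3p and miR-132-3p the seed AACAGUC. The assignment rests on starts within 1 kb of the centre: the 208 bp region at the Mir17 cluster (chr14:115043660-115043867) contains the mature miR-17-5p, but miR-19a, miR-20a, miR-19b and miR-92a lie past its end, and so does miR-132 at the region of Mir212. let-7i, whose gene started 205.5 bp from the centre, shared its region of fold 3.25 with the pseudogene D630033A02Rik. miR-210, a miRNA known for its induction in hypoxia, had the second highest fold of the miRNA genes, and its region lay 408 bp upstream of the gene's start.

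The 12 TEC regions ranged in fold from 2.91 to 5.45. Gm6420 (5.45; chr1:23255968-23256999), Gm7461 (5.41) and Gm5112 (5.36) were highest, followed by Gm42690 (4.52) and Gm43238 (3.80). The region at Gm6420 was also among the 5 widest of the 140, at 1032 bp. The others were 1810059C17Rik at 1609 bp, which starts inside Mllt10 and had a fold of 4.22, 6720427I07Rik at 1457 bp, Zswim6 at 1357 bp (fold 4.08) and the pseudogene Nlrp5-ps at 1141 bp (fold 3.05).

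Chromosome 12 held the most regions, 19 of the 140. They were 7.20% of its 264 Arid1a cKO regions, where the other autosomes had between 0.448% and 4.04%. Per 1000 annotated noncoding genes, however, chromosome 12 had 10.3 regions and chromosome 11 had 10.2. Of the 19, 8 lay in a segment of 3.04 Mb (chr12:17882295-20921544), which was picked after the positions had been seen, and without it 11 of 256 regions (4.30%) remained. All 8 were named after pseudogenes (Gm49326, Gm9229, Gm49330, Gm40848, Gm48525, Gm49697, 1700030C10Rik and 3110053B16Rik), all were CpG-rich, and they were the only Arid1a cKO regions in the segment. Their folds ran from 3.21 at 1700030C10Rik to 5.09 at Gm40848. The segment has 2 protein-coding genes and 97 noncoding genes in the annotation, and 9 of the 26 noncoding genes with a CpG-rich start had a region, beside 12.6% of all such genes and 6.92% of such pseudogenes away from coding starts. The regions are not all independent in sequence, since 1700030C10Rik and Gm49326 shared 12.7% of their 31-mers, and 3110053B16Rik and Gm48525 shared 12.8%. For 3 of the 8, RefSeq places a protein-coding start within 1 kb, including Zfp996 at Gm40848 and Gm9222 at Gm49326.

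**Figure D5:**
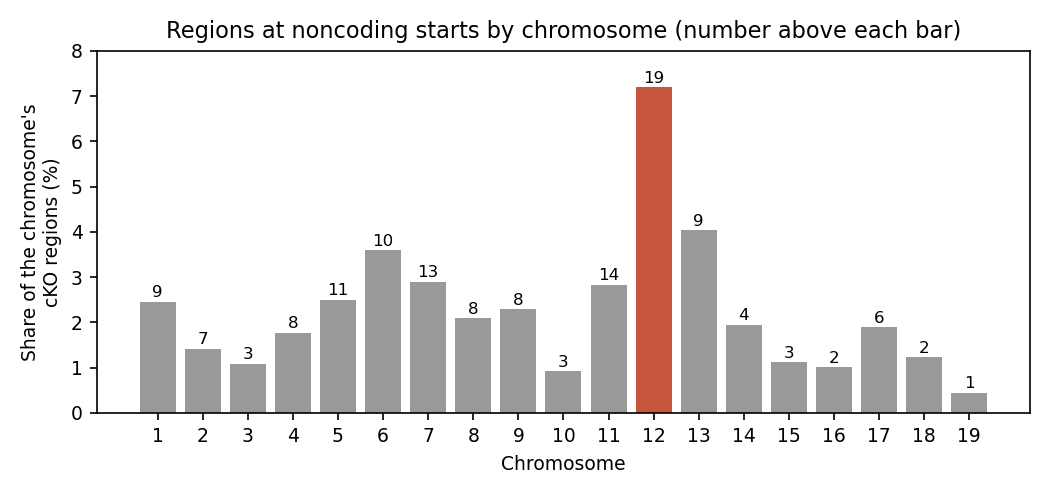
Share of each autosome's Arid1a cKO H3.3 regions that lie at noncoding starts only (vertical axis, percent), with the number of such regions above each bar. Chromosome 12, in red, reaches 7.20% with 19 regions, and the next, chromosome 13, reaches 4.04% with 9.

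Most of the 140 regions lay far from any protein-coding start: the nearest was over 10 kb away for 84 of 140, and 1 to 2 kb away for 17. The median fold was 3.35 in these 17 and 3.71 in the other 123. A protein-coding gene body held the centre of 35 regions, and in 27 of the 35 the noncoding gene ran on the opposite strand to its host. The same share over all noncoding genes inside protein-coding genes was not counted. The rule also counted every transcript annotated to the host itself as a protein-coding one. The limit of 1 kb was close for Gm27239, which was 1003 bp from a start of Sall3 with a fold of 3.29, for Gm10605, which was 1011.5 bp from Tpbgl (3.02), and for Gm37179, which was 1052 bp from Igf2bp1 (2.91). RefSeq, however, places a curated Sall3 start 753 bp from the centre of the Gm27239 region. Regions just short of the limit, and so counted at protein-coding starts, were those of Rps13-ps4 at 992.5 bp from Taf1c (4.24), Gm9748 at 959 bp from Pcdh8 (2.91) and 4933430L12Rik at 903.5 bp from Dedd2 (3.44).

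The line between coding and noncoding starts also depends on the annotation. RefSeq places a protein-coding start within 1 kb of 20 of the 140 regions, a share of 14.3% (9.44 to 21%), and for 13 of them that start belongs to a curated transcript. At Zswim6, Spata5l1, Tmem250-ps, Gm11837 and 1810058I24Rik the curated RefSeq start belongs to the same symbol, which RefSeq gives a coding transcript. At 4930430O22Rik it belongs to Msi1, at AC157931.1 to B3gnt4, at A530083I20Rik to Zfp660 and at Gm27239 to Sall3. At Gm37494, of fold 6.99, it belongs to the model gene Gm33989.

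Some regions could not be placed by their sequence alone. In 10 of the 140, fewer than 50% of the 50-mers occur once on the chromosomes, and 7 were more than 50% repeat-masked, where the same shares were 0.516% and 0.0368% at protein-coding starts and 35.1% and 36.1% in distal regions. The whole 257 bp region at 2900097C17Rik occurs within the 626 bp region at Gm7292 on another chromosome, so reads from either place map to both, and their folds of 5.51 and 3.13 cannot be assigned to one gene. The regions at A230004M16Rik (3.74), Gm43238 (3.80) and Gm48238 (2.91) shared between 24.0% and 54.4% of their 31-mers, and the 50-mers of these 3 regions had a median of 587 to 1672.5 copies. The snoRNA gene Rnu3b3, the histone copy Hist1h2al and the snRNA gene Gm24950 were also mostly repeated. Left without those 10 regions, the other 130 had a median fold of 3.67.

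Short motifs of common promoter factors were searched in the central 300 bp of each region on both strands. The Sp/KLF motif GGGCGG was present in 102 of 140 (72.9%, 65.0 to 79.5%), in 75.2% of regions at protein-coding starts, in 60.2% of distal regions and in 36.0% of all 31396 autosomal RefSeq promoters of the same length. The promoter windows ran from 250 bp before to 50 bp after a gene start and were not matched to the regions for GC or CpG content. The NF-Y motif CCAAT was present in 22.9% (16.7 to 30.5%), the ETS motif CCGGAAG in 13.6% (8.86 to 20.2%) and the MYB motif AACNGNC in 27.1% (20.5 to 35.1%), compared with 20.8%, 15.3% and 30.2% at protein-coding starts and 37.3%, 9.0% and 32.7% of all promoters. The YY1 motif ATGGCGG was found in 7.86% (4.44 to 13.5%), and in 14.3% of regions at protein-coding starts and 4.07% of all promoters. The motifs GCGCATG of NRF1, GTTGCCA of RFX, TGACGTC of CREB family proteins and TATAAA were each in 5.00% or fewer of the 140. A match to these letters does not show that the factor was bound.

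In Arid1a WT, no autosomal region met the same rule. The Arid1a WT list held 4 autosomal regions of 228 in all, none of them at a noncoding start only, and none of the 140 Arid1a cKO regions overlapped an Arid1a WT region. The 140 were 2.27% of the autosomal Arid1a cKO regions, and only 4 autosomal Arid1a WT regions were there to be met. The lack of overlap thus cannot be read as a trait of the 140. The lists differ in how weak a peak they hold: the lowest fold of an Arid1a WT region was 4.85, and 25 of the 140 regions reached that value. The lowest −log10 q was 2.20 in the Arid1a WT list and 1.35 in the Arid1a cKO list, and 105 of the 140 reached the former. These counts were not taken over all autosomal regions, so they are not read as a trait of the 140. For scale, the upper quartile of fold was 4.93 at protein-coding starts and 3.64 in distal regions. The lower quartile of −log10 q was 2.77 and 2.11 in the same groups. The depth of the libraries is unknown, and whether depth, the number of replicates or genotype set this difference was not tested.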

How the data were processed

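H3.3 CUT&RUN peaks of pachytene spermatocytes were analysed, from 2 libraries of Arid1a WT and 3 of Arid1a cKO; 12 libraries made with ARID1A antibodies were not used here. Groups came from the sample titles. The authors trimmed reads (Trim Galore), aligned them to mm10 (Bowtie2), handled duplicates with Picard, called broad peaks with MACS2 against a rabbit IgG library of another study, and intersected the replicates of a genotype. The IgG library came from pachytene-enriched cells of juvenile testes, whereas the H3.3 libraries came from adult males. The H3.3 antibody was a mouse monoclonal, so the fold is not over a matched control. Each row of a deposited list holds a fold enrichment (a ratio of H3.3 to IgG signal), a −log10 p (not used), a −log10 q, and a display score that the authors' peak caller derived from q. The fold was only described. Each fold and −log10 q is the value of a peak call kept through the intersection, and is not a mean over the replicates. There are therefore no replicate errors, and the depth is not known. No per-sample column lacked a sample (0).

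Rows overlapping by at least 1 bp were merged; each merged region came from 1 peak and kept its fold. Transcript starts were those of GENCODE M21, and sequence was that of GRCm38.p6. Copies of 50-mers were counted on both strands. Regions with at least 10% of 31-mers in common were called related. The 95% Wilson intervals take regions as independent draws and hold no other error than that of counting. The classing was tested on simulated data, where 400 of 400 planted regions were classed right. The planted regions were placed clear of the 1 kb limit by design, so this checks the code and says nothing of regions near the limit. The text names the 10 lncRNA, 5 pseudogene, 5 small RNA and 5 TEC regions of highest fold, the 5 widest, those at genes of 3 lists (snoRNA hosts, well-studied lncRNAs, housekeeping small RNAs) and the 3 on either side of the 1 kb limit; genes named beside these were chosen after their values were seen. The regions, lists and motifs were chosen with earlier results of these data known. Python 3.11.15, pandas 2.3.3, numpy 2.4.6, scipy 1.17.1, numba 0.67.0 and matplotlib 3.10.9 were used.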

Additional observations from a re-analysis of the deposited data

How the results depend on the processing

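No paired analysis was possible because the replicates were intersected into 1 list per genotype. Of 78 values under 13 settings (12 fixed and 1 added after seeing the data), 64 kept within 1.5 times the count or within the 95% interval of the main value, and 14 moved. Counting deposited rows in place of merged regions gave 241, since the same peak can stand in more than 1 row. With a −log10 q of at least 3, the count was 69, its share of autosomal regions 1.73%, the median fold 4.33, the median width 392 bp, the lncRNA share 66.7% and the CpG-rich share 88.4%. At 5, they were 29, 1.67%, 5.36 and 392 bp, with a CpG-rich share of 96.6%. With only regions of at least 2 rows, the median width was 386 bp and the CpG-rich share 88.3%. The q settings keep the strongest calls by construction; for the row setting the cause was not tested. The 1 kb window moved no count past 1.5 times, but it changed which regions were included: a window of 500 bp gave 147 regions, 123 of them among the 140, one of 2 kb gave 138, with 123 shared, and basic transcripts gave 162, with 133 shared. Barring RefSeq coding starts left 120. The share of genes with a region, compared under 8 added settings, stayed higher with a CpG-rich start than without in each: 3.22 to 19.7% against 0.0228 to 0.323% for noncoding genes. Of the 32 values for coding and noncoding genes, 23 moved out of the main interval. Depth is unknown, so an absent region says nothing of H3.3 below the calling threshold.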
